A study of Mus musculus with 4 samples.

Results

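The genes described here encode Wnt ligands, their Frizzled (Fzd) receptors and 3 families of secreted modulators of Wnt signalling: secreted Frizzled-related proteins (Sfrp), Dickkopf proteins (Dkk) and R-spondins (Rspo). They were matched by symbol alone, and probe sets carrying more than 1 symbol were left out. The choice of these families was made with earlier results of these data known. The rule found 41 of the 19938 genes measured: 19 Wnt, 10 Fzd, 4 Sfrp, 4 Dkk and 4 Rspo genes. Each had 1 probe set except Wnt4.

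Affymetrix arrays with 1 colour measured total RNA of 4 mouse cultures, 1 array per culture. Mouse embryonic fibroblasts (MEF), a mixed primary culture of connective tissue cells, came from a mixed DBA/2, C57BL/6 and 129S4 background. The induced pluripotent stem (iPS) lines 178B5 and 492B4 had that same mixed background. The embryonic stem (ES) line v6.5 was an F1 of 129 and C57BL/6, so its strain differed from the rest. MEF grew in serum medium, whereas iPS and ES cells grew in ES medium with serum on SNL feeder cells, a fibroblast line that had been treated with mitomycin-C and carried puromycin resistance. Cells of such a feeder layer may be present in the iPS and ES samples and not in MEF, and no other treatment is named. The labels do not say how the iPS lines were reprogrammed, and each line stands for itself.

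Wnt proteins are lipid-modified ligands that leave the cell with the help of Wls and bind Frizzled receptors. With the co-receptors Lrp5 and Lrp6 they stabilise beta-catenin, which acts on genes through Tcf and Lef factors; other branches steer cell polarity and movement without beta-catenin. Sfrp proteins bind Wnt ligands, several Dkk proteins block the Lrp co-receptors, and R-spondins bind Lgr receptors and keep Frizzled receptors at the cell surface. In mouse ES cells the beta-catenin branch is known for supporting self-renewal, and in embryonic mesenchyme Wnt5a and R-spondins are known for their part in limb growth.

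All values below are differences between arrays on the log2 scale, with the log base taken as 2. The deposited table is centred, with the median of each probe set at 0 over the 4 arrays. It holds no levels, so it cannot be said whether a gene near 0 was expressed in every sample or in none. Each value is therefore given as line minus MEF, which the centring does not touch.

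The labels were set against marker genes. All 12 pluripotent cell markers, among them Pou5f1 and Nanog, were called higher in the lines than in MEF (median 5.93 log2), beside 7.9% of all genes. Of 18 fibroblast markers 12, such as Col1a1, were called lower (median of the 18 -3.65 log2), beside 9.71% of all genes. Col6a3, Lum, Dcn, Postn, Thy1 and Prrx1 were not called, yet each lay at least 1 log2 below MEF in every line. The fibroblast markers were not equally low in the lines. Their median difference from MEF was -4.09 log2 (range -7.08 to -1.14) in iPS 178B5, -4.46 log2 (-7.37 to -1.27) in iPS 492B4 and -2.62 log2 (-4.38 to -1.07) in ES, and 16 of 18 stood higher in ES than in both iPS lines. Of 19 primitive endoderm markers, 17 stood higher in both iPS lines than in ES, with medians of 0.88, 0.45 and -0.53 log2 against MEF. The share of all genes with ES above or below both iPS lines was not counted. The data do not tell fewer cells of a type from less RNA per cell. Levels at or near 0 cannot be read from centred values.

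The RefSeq promoter table for GRCm38.p6 held 27 of the 41 genes, with 30 start sites. For the 4 of these with the lowest means against MEF, the 250 bases upstream of the start are shown 5′ to 3′ on the gene's strand, because these genes were low together in all 3 lines. The start is the one listed there, which can differ from the start of the annotated gene. The annotated Dkk2 gene begins at 132085266 and Sfrp2 at 83765750. Part of the Dkk2 window and all of the Sfrp2 window thus lie inside the annotated gene. Capitals mark the TATA box letters TATAAA and the GC box letters CCGCCC, each searched on both strands. They do not overlap each other, but CCGCCC can overlap itself, as it does in Fzd4.
Dkk2, chr3:132085042-132085291, + strand: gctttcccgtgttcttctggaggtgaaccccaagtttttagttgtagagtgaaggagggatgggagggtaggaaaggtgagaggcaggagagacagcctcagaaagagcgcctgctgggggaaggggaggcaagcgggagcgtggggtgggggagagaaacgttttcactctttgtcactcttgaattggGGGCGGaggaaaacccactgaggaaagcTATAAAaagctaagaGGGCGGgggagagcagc
Fzd1, chr5:4758217-4758466, - strand: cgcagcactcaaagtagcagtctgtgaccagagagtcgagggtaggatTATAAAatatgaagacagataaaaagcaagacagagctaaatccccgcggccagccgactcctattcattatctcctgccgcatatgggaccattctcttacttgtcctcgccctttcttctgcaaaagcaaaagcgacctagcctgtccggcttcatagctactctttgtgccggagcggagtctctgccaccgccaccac
Fzd4, chr7:89404116-89404365, + strand: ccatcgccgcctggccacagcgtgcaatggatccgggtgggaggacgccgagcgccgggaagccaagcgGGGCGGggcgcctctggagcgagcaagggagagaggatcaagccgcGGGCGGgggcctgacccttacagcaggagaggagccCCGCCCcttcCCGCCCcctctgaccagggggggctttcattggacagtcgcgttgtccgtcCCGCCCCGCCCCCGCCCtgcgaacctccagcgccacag
Sfrp2, chr3:83766071-83766320, + strand: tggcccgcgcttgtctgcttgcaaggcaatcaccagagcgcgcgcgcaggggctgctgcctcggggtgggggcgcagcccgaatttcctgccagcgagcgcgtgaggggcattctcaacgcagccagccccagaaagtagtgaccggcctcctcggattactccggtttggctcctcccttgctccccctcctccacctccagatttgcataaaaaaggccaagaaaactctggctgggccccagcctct

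The TATAAA of Dkk2 begins 32 bases upstream of the listed start, while that of Fzd1 begins 202 bases upstream. Fzd4 holds 7 CCGCCC matches and 25 CpG dinucleotides, against 2 matches and 7 CpG in Dkk2, and Sfrp2 holds neither set of letters in its 250 bases. Over the 30 member start sites, 21 (70%) hold CCGCCC, compared with 32.7% of all 32851 windows of this length, and the median number of CpG is 22 against 6. TATAAA is in 4 of the 30 (13.3%; 12.4% of all windows). CTTTGAT, the core letters bound by Tcf and Lef factors, is in 2 of the 30 (6.67%, against 3.21% of all windows), in start sites of Wnt11 and Wnt5b. Of the 7 start sites whose genes were at least 1 log2 below MEF in every line, 4 (57.1%) hold CCGCCC and 0 hold CTTTGAT. Of the other 23 member start sites, 17 (73.9%) hold CCGCCC and 2 (8.7%) hold CTTTGAT. With CTTTGAT in 3.21% of all windows, 7 sites are too few to show a lack of it. These are matches of letters, given as description.

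The first comparison asked which of these genes separate the pluripotent lines from fibroblasts. Calls required a difference of 1 log2 or more together with an adjusted p below 0.05 in limma's test over all 19938 genes. In all 12 genes fell: Rspo2, Rspo3, Dkk3, Fzd1, Fzd2, Fzd4, Fzd8, Fzd6, Sfrp2, Wnt2, Wnt2b and Wnt16. They are 12 of 41 (29.3%), beside 9.71% of all genes called lower. None of the 41 was called higher by limma, beside 7.9% of all genes. An unadjusted p under 0.05 was reached by 18 of the 41 (43.9%), near the 37.8% of all genes, and the single one of the 18 above MEF was Fzd5. As deposited, 25 of the 41 (61%) lay below MEF in every line, beside 47.7% of all genes, and 7 (17.1%) above MEF in every line, beside 30.1%; none of these 7 was 1 log2 above MEF in every line, beside 7.03% of all genes. The median over the 41 was -0.42 log2, beside -0.10 log2 over all genes. The spread behind these p-values comes from the 3 lines, and the lone MEF array is assumed to vary like them. Repeat cultures are not mentioned in the labels, and the p-values measure only the spread between these samples, which are separate lines.

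**Figure D1:**
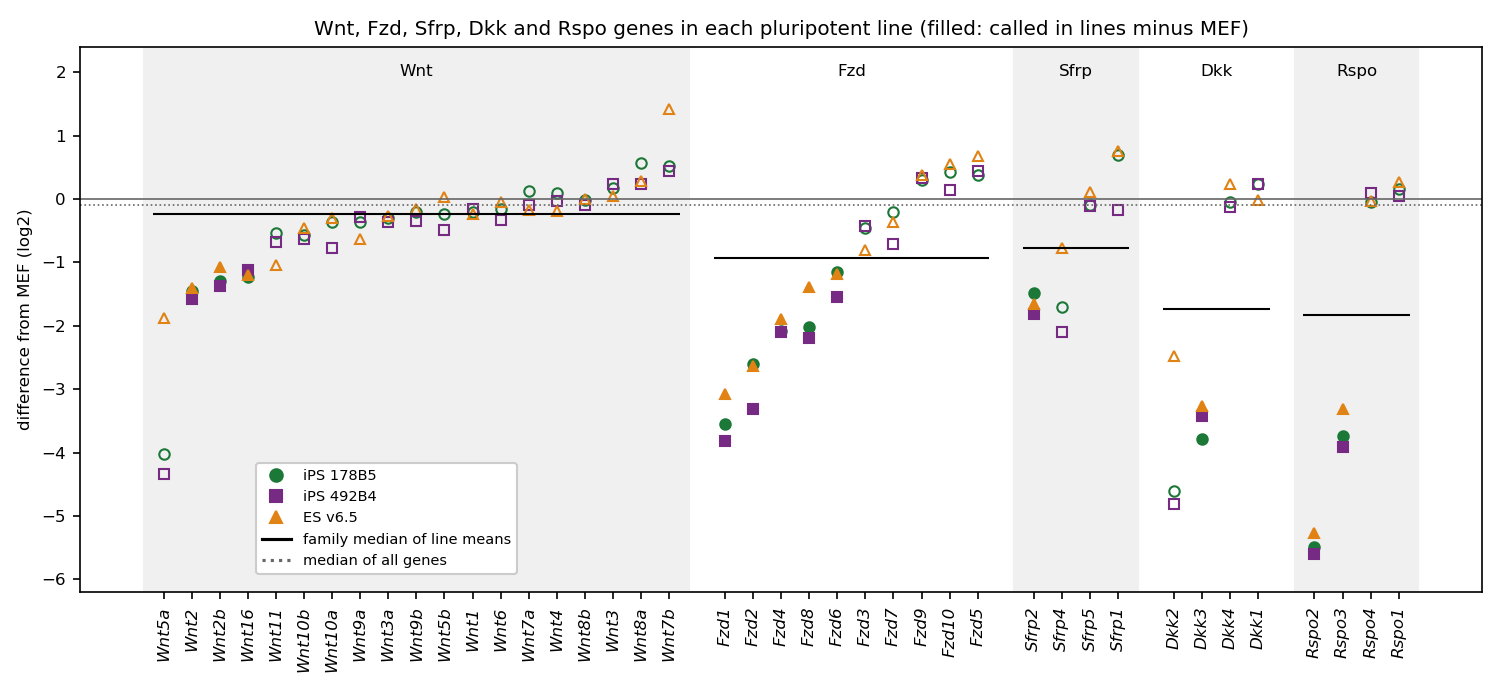
Difference from MEF (log2, vertical axis) of each of the 41 genes, grouped by family and sorted within it, with 1 symbol per pluripotent line; filled symbols are genes called in the 3 lines against MEF, black bars are family medians and the dotted line is the median of all genes. The values reach -5.60 log2 in Rspo2, and most Wnt genes lie near 0.

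The families are given by their medians and counts, with no test between them. R-spondin genes had a median of -1.83 log2 (2 of 4 fell), Dkk genes -1.73 log2 (1 of 4), Fzd genes -0.92 log2 (5 of 10), Sfrp genes -0.78 log2 (1 of 4) and Wnt genes -0.23 log2 (3 of 19). Beside these counts, 9.71% of all genes were called lower. The R-spondin and Dkk medians stand for no single gene: in each family 2 genes had means of -3.49 log2 or lower and 2 lay within 0.16 log2 of MEF. With arrays centred on reference genes the median of all genes moved from -0.10 to -0.30 log2, and with equal array medians to -0.05 log2. The 13 reference genes measured, whose median set that centring, were not all steady. Of these 2 were called higher and 2 lower (beside 7.9% and 9.71% of all genes), with means from -1.53 log2 (Gusb) to 2.77 log2 (Tfrc). The 12 calls held under both scalings. All 5 family medians lay below the median of all genes. Each scaling moves every gene by the same amount, so this order could not change. Without iPS 178B5 the count was 7 (beside 3.73% of all genes), because Wnt2, Wnt2b, Wnt16, Fzd6 and Fzd8 were not called.

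Among the ligands, 4 of 19 Wnt genes lay at least 1 log2 below MEF in every line, beside 8.71% of all genes. Wnt5a, a ligand best known for signalling without beta-catenin, stood at -4.02 log2 in iPS 178B5, -4.33 log2 in iPS 492B4 and -1.87 log2 in ES. All 3 lines were below MEF, with ES far above both iPS lines, and the mean of -3.41 ± 1.34 log2 (SD, n = 3 lines) was not called (adjusted p = 0.0879). Without ES it was called, at -4.18 log2 (adjusted p = 0.00212).

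Wnt2, a ligand known from lung and placental development, stood at -1.46 log2 in iPS 178B5, -1.58 log2 in iPS 492B4 and -1.40 log2 in ES. The lines lay close together, and the fall of 1.48 ± 0.093 log2 (SD, n = 3; 2.79-fold) had an adjusted p of 0.00841. Its near relative Wnt2b fell as well, with -1.30, -1.38 and -1.07 log2 in the same lines and a mean of -1.25 ± 0.16 log2 (SD, n = 3; adjusted p = 0.0156). Wnt16, a ligand known from bone, stood at -1.23, -1.12 and -1.19 log2. The lines spanned 0.11 log2, and the mean was -1.18 ± 0.056 log2 (SD, n = 3; adjusted p = 0.0107). Without iPS 178B5 the adjusted p was 0.0513 for Wnt2, 0.0764 for Wnt2b and 0.0663 for Wnt16.

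The other 15 Wnt genes were not called, and their mean differences ran from -0.75 log2 (Wnt11) to 0.80 log2 (Wnt7b). Wnt11, which like Wnt5a can signal without beta-catenin, stood at -0.53 log2 in iPS 178B5, -0.68 log2 in iPS 492B4 and -1.04 log2 in ES (adjusted p = 0.0974). Wnt7b stood at 0.52, 0.45 and 1.43 log2 (adjusted p = 0.27). In Wnt7b the ES line lay 0.91 log2 above iPS 178B5 and 0.98 log2 above iPS 492B4. Wnt10b, a ligand that holds back fat cell formation, was at -0.57, -0.63 and -0.46 log2 (adjusted p = 0.0642).

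Wnt3, a ligand needed for the primitive streak of the embryo, stood at 0.18 log2 in iPS 178B5, 0.24 log2 in iPS 492B4 and 0.044 log2 in ES. Its 95% interval for the 3 lines against MEF ran from -0.26 to 0.56 log2, and its sign turned with reference gene centring. A change of 1 log2 lies outside that interval, which assumes that the lone MEF array varies like the lines. Wnt3a, the ligand often added to cultures to activate beta-catenin, had a mean of -0.31 log2 (interval -0.68 to 0.055). Wnt8a lay above MEF in each line (0.56, 0.24 and 0.29 log2), with an interval of -0.15 to 0.87 log2. The means of the rest were -0.48 log2 for Wnt10a, -0.42 log2 for Wnt9a, -0.23 log2 for Wnt9b, -0.23 log2 for Wnt5b, -0.20 log2 for Wnt1 and -0.18 log2 for Wnt6. Wnt7a (-0.047 log2), Wnt4 (-0.038 log2) and Wnt8b (-0.036 log2) lay nearest 0, and each changed sign with equal array medians.

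Wnt4 was the only one of the 41 with 2 probe sets, and they disagreed. The first stood at 0.48 log2 in iPS 178B5, 0.60 log2 in iPS 492B4 and -0.23 log2 in ES, the other at -0.29, -0.66 and -0.14 log2. Both iPS lines thus lay above MEF by 1 probe set and below it by the other.

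Several Wnt genes lie side by side in pairs in the GRCm38.p6 annotation, with no other protein-coding gene between: Wnt3a with Wnt9a, Wnt3 with Wnt9b, Wnt6 with Wnt10a, and Wnt1 with Wnt10b. No gene of these 4 pairs was called in the 3 lines against MEF.

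Of the 10 receptor genes, 5 fell, beside 9.71% of all genes. Fzd1 stood at -3.55 log2 in iPS 178B5, -3.82 log2 in iPS 492B4 and -3.08 log2 in ES, a mean of -3.48 ± 0.38 log2 (SD, n = 3; 11.2-fold lower; adjusted p = 0.00718). Fzd2, in sequence one of its nearest relatives, stood at -2.61, -3.32 and -2.64 log2, a mean of -2.85 ± 0.40 log2 (SD, n = 3; adjusted p = 0.0108). Fzd7, often grouped with them, did not follow: it stood at -0.20, -0.72 and -0.35 log2, and its interval of -1.08 to 0.23 log2 leaves room for a fall of about 1 log2 (adjusted p = 0.284).

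Fzd4, also the receptor for Norrin in blood vessels, fell by 2.02 ± 0.11 log2 (SD, n = 3; adjusted p = 0.00596), with -2.08, -2.09 and -1.90 log2 in iPS 178B5, iPS 492B4 and ES. Fzd8 stood at -2.02, -2.19 and -1.39 log2, again highest in ES (adjusted p = 0.0277). Fzd6, known for planar cell polarity in skin, stood at -1.15, -1.55 and -1.19 log2 (adjusted p = 0.0209). The last pair were the less stable calls: without iPS 178B5 the adjusted p was 0.0896 for Fzd8 and 0.0702 for Fzd6, and without iPS 492B4 it was 0.0509 for Fzd8.

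The other 5 receptor genes were not called. Fzd3 stood at -0.45, -0.42 and -0.80 log2 (adjusted p = 0.137). Fzd5 lay above MEF in every line, at 0.38, 0.44 and 0.68 log2, with a mean of 0.50 log2, an interval of 0.014 to 0.99 log2 and an adjusted p of 0.125. Fzd10 (0.38 log2) and Fzd9 (0.34 log2) also had means above 0. No receptor gene lay 1 log2 above MEF in any line.

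Among the R-spondins, Rspo2 showed the lowest value of all 41 genes. It stood at -5.50 log2 in iPS 178B5, -5.60 log2 in iPS 492B4 and -5.28 log2 in ES, and fell by 5.46 ± 0.16 log2 (SD, n = 3; 43.9-fold; adjusted p = 0.00349). The 3 lines spanned 0.32 log2, far less than their distance from MEF. Rspo3 stood at -3.74, -3.92 and -3.31 log2, a fall of 3.66 ± 0.31 log2 (SD, n = 3; 12.6-fold; adjusted p = 0.00593). Rspo1 and Rspo4 stood near 0 in every line, with means of 0.16 and 0.0027 log2 and intervals of -0.27 to 0.58 and -0.39 to 0.39 log2; both turned negative with reference gene centring. The call of Rspo2 was lost when the variance was allowed to follow the mean value (adjusted p = 0.22). That setting has no level to follow in centred data.

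**Figure D2:**
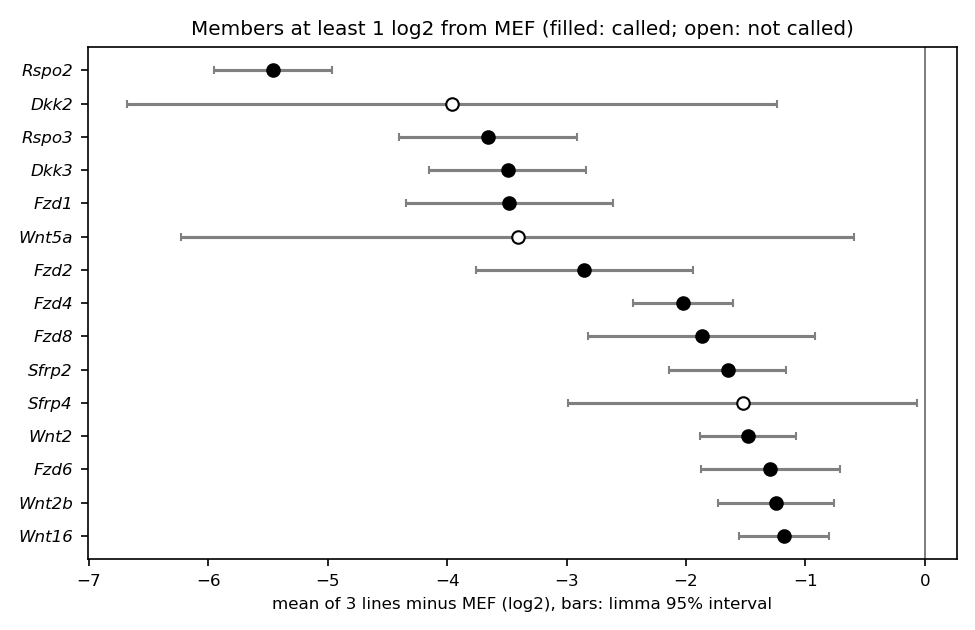
Mean of the 3 pluripotent lines minus MEF (log2, horizontal axis) for the 15 genes with a mean at least 1 log2 from MEF, with limma's 95% interval; filled points were called and open points were not. Dkk2, Wnt5a and Sfrp4 are the open points, and their intervals are the widest.

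Of the Dickkopf genes, Dkk3 fell by 3.49 ± 0.27 log2 (SD, n = 3; 11.3-fold; adjusted p = 0.00548), with -3.79 log2 in iPS 178B5, -3.43 log2 in iPS 492B4 and -3.27 log2 in ES. Dkk3 is the most distant relative in the family and is not a typical Lrp blocker. Dkk2 lay lower still in the iPS lines, at -4.60 and -4.81 log2, but at -2.47 log2 in ES, and its mean of -3.96 ± 1.29 log2 (SD, n = 3) was not called (adjusted p = 0.0571). It was called without ES (-4.70 log2, adjusted p = 0.00187) and with reference gene centring (-4.16 log2, adjusted p = 0.0448). Dkk1, the best known Lrp blocker, stood at 0.24, 0.24 and -0.021 log2, with an interval of -0.32 to 0.62 log2. Dkk4 had a mean of 0.025 log2. The signs of Dkk1 and Dkk4 turned with reference gene centring.

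Of the Sfrp genes, Sfrp2, a product of mesenchymal cells, fell by 1.65 ± 0.16 log2 (SD, n = 3; adjusted p = 0.00929), with -1.49, -1.81 and -1.66 log2 in iPS 178B5, iPS 492B4 and ES. Sfrp4 stood at -1.71 and -2.10 log2 in the iPS lines and -0.77 log2 in ES, and was not called (adjusted p = 0.121). Without ES it was called (-1.90 log2, adjusted p = 0.00822). Sfrp1 split the lines another way, with 0.69 log2 in iPS 178B5, -0.18 log2 in iPS 492B4 and 0.76 log2 in ES (adjusted p = 0.527). Sfrp5 had a mean of -0.028 log2, and its sign turned with equal array medians.

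The second comparison set iPS and ES cells against MEF separately, in a fit with 3 groups whose spread comes from the 2 iPS lines. The lone ES and MEF arrays are assumed to vary like them, and both comparisons share the MEF array. For iPS, 15 of 41 genes (36.6%) were called lower, beside 11.2% of all genes, and 0 higher by limma, beside 9.94%. For ES, 15 (36.6%) were called lower, beside 10.9% of all genes, and 1 higher (2.44%), beside 9.14%. At an unadjusted p under 0.05 there were 20 of the 41 for iPS (48.8%, near the 45.4% of all genes) and 21 for ES (51.2%, beside 38.2%). The 14 genes at least 1 log2 below MEF in every line (34.1%, beside 8.71% of all genes) were called on both sides. To these the iPS comparison added Sfrp4 (-1.90 log2, adjusted p = 0.00822) and the ES comparison Wnt11 (-1.04 log2, adjusted p = 0.0237). The gene called higher in ES was Wnt7b, at 1.43 log2 (adjusted p = 0.0114).

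The third comparison asked where reprogrammed lines differ from the embryo-derived line. Between iPS and ES, limma called 0 of 41 genes, beside 0% of all genes in either direction. At an unadjusted p under 0.05 there were 8 of 41 (19.5%), beside 15.4% of all genes. Of the 8, Wnt5a (-2.30 log2 in iPS minus ES), Dkk2 (-2.23 log2), Sfrp4 (-1.13 log2), Wnt7b (-0.94 log2), Fzd8 (-0.72 log2), Fzd1 (-0.61 log2) and Rspo3 (-0.52 log2) were lower in iPS, and Wnt11 (0.43 log2) was higher. The lowest adjusted p among the 41 was 0.073, for Dkk2. Wnt5a had an adjusted p of 0.0867 and an interval of -2.84 to -1.77 log2, and Wnt7b had 0.147 and -1.33 to -0.55 log2.

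The fibroblast markers of the ES sample moved in the direction of Wnt5a, Dkk2 and Sfrp4. The median of the 18 fibroblast markers was 1.60 log2 higher in ES than in iPS 178B5, and 1.83 log2 higher than in iPS 492B4. Wnt5a was 2.15 and 2.46 log2 higher in ES than in these lines, Dkk2 was 2.13 and 2.33 log2 higher, and Sfrp4 0.94 and 1.32 log2 higher. The part of fibroblast RNA in these differences was not tested. The call in the 3 lines itself favours genes with little spread among them. In the 12 genes called, ES minus iPS 178B5 ran from -0.17 log2 (Sfrp2) to 0.63 log2 (Fzd8), and ES minus iPS 492B4 from -0.075 log2 (Wnt16) to 0.80 log2 (Fzd8). Fzd1 was 0.47 and 0.75 log2 higher in ES than in these lines, Rspo3 0.44 and 0.61 log2, and Rspo2 0.22 and 0.32 log2. Fzd2 stood at -0.026 log2 in ES minus iPS 178B5 and 0.68 log2 in ES minus iPS 492B4. Primitive endoderm markers ran the other way, with a median of 1.05 log2 in iPS minus ES, and their part in these values was not tested either.

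**Figure D3:**
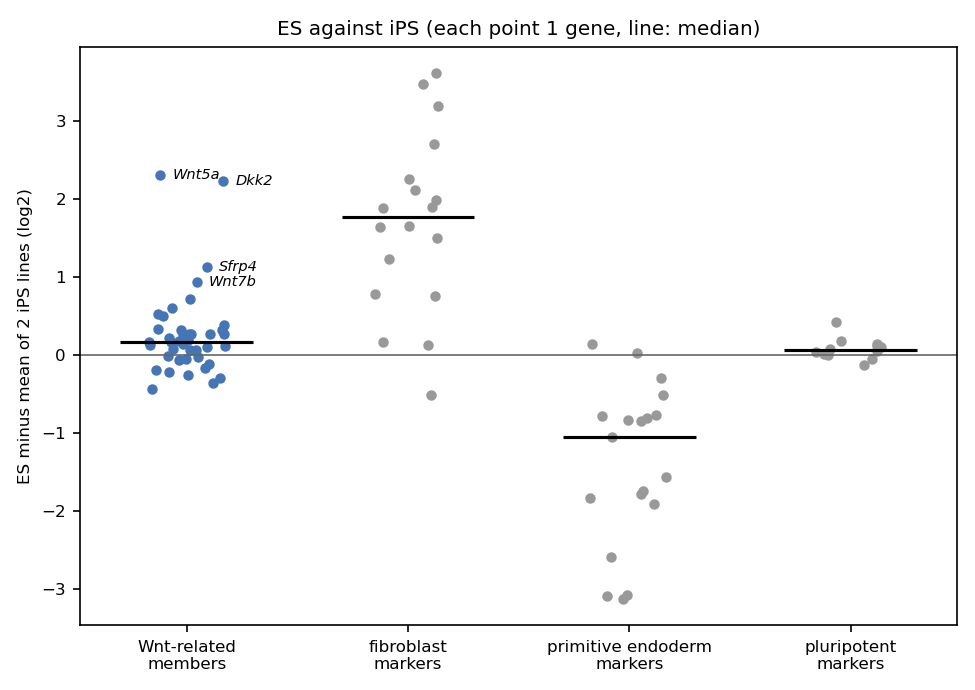
ES minus the mean of both iPS lines (log2, vertical axis), each point 1 gene and each bar a median, for the 41 Wnt-related genes and 3 lists of marker genes. Most of the 41 lie near 0, Wnt5a and Dkk2 lie above 2 log2 among the fibroblast markers' values, and pluripotent markers lie near 0.

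The order of the 3 lines was also followed. ES lay above iPS 178B5 and iPS 178B5 above iPS 492B4 in 23 of 41 genes (56.1%), beside 30.8% of all genes. The array medians over all probe sets had the same order (0.0158, -0.0145 and -0.0250 log2), and the order was not followed with equal array medians. Some of the 23 rest on gaps of that size, such as Wnt8b, 0.026 log2 higher in ES than in iPS 178B5. Among genes at least 1 log2 below MEF in every line this held for 9 of 14 (64.3%), beside 46% of the 1736 such genes overall. The same order held for 15 of the 18 fibroblast markers. Between the iPS lines, which were compared without a test, 3 of 41 genes (7.32%) were lower in 492B4 by at least 0.5 log2, beside 3.3% of all genes, and 0 were higher by that much, beside 3.66%. They were Sfrp1 (-0.87 log2), Fzd2 (-0.71 log2) and Fzd7 (-0.51 log2).

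Other genes of the pathway were counted in the 3 lines against MEF, by lists that share some genes. Of 20 co-receptors and genes of receptor turnover, 6 fell and 0 rose, beside 9.71% and 7.9% of all genes. Tpbg, which dampens Wnt signalling at the membrane, fell by 2.62 log2 (adjusted p = 0.0157), and the R-spondin receptor gene Lgr5, itself a Wnt target, by 2.45 log2 (adjusted p = 0.00548). Gpc4 fell by 2.06 log2 and Adgra2, a co-receptor for Wnt7 ligands, by 1.89 log2. The R-spondin receptor gene Lgr4 stood at 0.21 log2 (adjusted p = 0.368), and the co-receptor genes Lrp5 and Lrp6 stood at -0.60 (adjusted p = 0.0686) and -0.39 log2 (adjusted p = 0.259).

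Of 15 genes for Wnt secretion and other secreted modulators, 4 fell and 1 rose, beside 9.71% and 7.9% of all genes. Wls, the carrier of Wnt proteins through the secretory pathway, stood at -4.12 log2 in iPS 178B5, -4.97 log2 in iPS 492B4 and -2.70 log2 in ES (adjusted p = 0.0439). It too was highest in ES among the lines, and its call was lost when iPS 178B5 (adjusted p = 0.114) or iPS 492B4 (0.0513) was left out. Trabd2b, a protease that inactivates Wnt proteins, fell by 1.70 log2 and Igfbp4 by 1.24 log2. Dkkl1, a distant relative of Dkk3 known from testis, rose by 2.51 log2, with 2.44, 3.12 and 1.96 log2 in iPS 178B5, iPS 492B4 and ES (adjusted p = 0.0276; 0.0826 without iPS 178B5).

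Inside the cell, 2 of 26 cytoplasmic genes rose and 1 fell, shares no higher than those of all genes (7.9% and 9.71%). Dact2 rose by 1.21 log2. Of the Dishevelled genes, which relay the signal from Frizzled, Dvl2 rose by 1.10 log2 and Dvl3 fell by 1.20 log2. Dvl1 stood at -0.95 log2 (adjusted p = 0.0153 by limma), not called because it was under the fold minimum. With reference gene centring Dvl2 stood at 0.90 log2, also under that minimum. Ctnnb1, the beta-catenin gene, stood at -0.055 log2 (adjusted p = 0.811). Of 16 nuclear factors 2 rose and 5 fell, beside 7.9% and 9.71% of all genes. With equal array medians 2 rose and 2 fell, beside 8.23% and 8.93%. Bcl9l, a beta-catenin co-activator, fell by 2.51 log2 and Tcf7l2 by 1.38 log2, the latter not called with equal array medians or without any 1 of the lines (adjusted p from 0.0505 to 0.0709). The co-repressor genes Tle4 and Ctbp2 rose by 2.11 and 1.43 log2. Of their relatives, Tle2 (-1.21 log2, adjusted p = 0.0151) and Tle5 (-1.04 log2, adjusted p = 0.042) fell. Ctbp1 was called lower too (adjusted p = 0.0198), while Tle1 and Tle3 were not called. Genes of these families were thus called in both directions. Tcf7l1, the repressor of the Tcf family known from ES cells, stood at -0.14 log2 (adjusted p = 0.821).

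Of 18 measured Wnt target genes 4 fell and 0 rose, beside 9.71% and 7.9% of all genes. Ccn5 fell by 4.54 log2 (adjusted p = 0.00548), Ccn4 by 4.01 log2 (0.013) and Cd44 fell by 2.68 log2 (0.0339), and Lgr5 was the other. These genes are also known from mesenchymal and other cell types, and the fibroblast markers fell beside them. What lies behind the falls of these targets was not tested. Axin2, a feedback gene widely used as a readout of beta-catenin, stood at 0.12 log2 in iPS 178B5, 0.45 log2 in iPS 492B4 and 0.53 log2 in ES (adjusted p = 0.295). Lef1 stood at 0.80, 0.44 and 1.72 log2 (adjusted p = 0.261). Of 18 genes of planar cell polarity and related branches 2 rose and 5 fell, beside 7.9% and 9.71% of all genes. Those that rose, a share near that of all genes, were Vangl2 (1.41 log2) and Celsr1 (1.27 log2). Camk2d (-2.29 log2), Invs (-2.20 log2), Prickle2 (-1.93 log2) and Daam2 (-1.67 log2) were among those that fell. Vangl2 and Celsr1 were named after their values were seen.

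Without iPS 178B5 fewer list members were called, as over all genes (3.73% lower and 3.07% higher). In this setting 3 co-receptor genes fell, 1 secretion gene fell and 0 rose, and 0 cytoplasmic genes changed. Among nuclear factors 1 fell and 0 rose, 2 targets fell, and 3 polarity genes fell and 0 rose. Without iPS 492B4 the shares of all genes were 8.72% lower and 7.27% higher. The counts that moved there were 2 falls among secretion genes, 1 rise among cytoplasmic genes, 2 falls among nuclear factors and 1 rise among polarity genes. Without ES 7 targets, 7 co-receptor genes, 5 secretion genes and 4 nuclear factors fell, beside 11.2% of all genes. With reference gene centring 1 cytoplasmic gene rose and 3 fell, beside 6.03% and 12.8% of all genes. In that setting 8 co-receptor genes, 5 secretion genes, 6 nuclear factors and 5 targets fell.

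**Figure D4:**
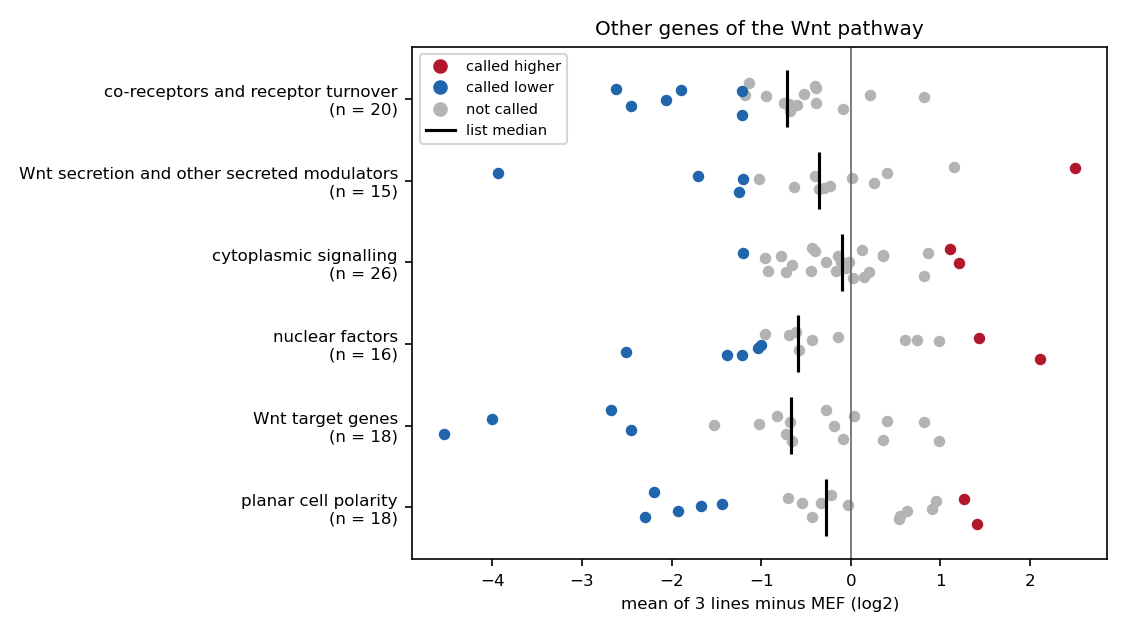
Mean of the 3 pluripotent lines minus MEF (log2, horizontal axis) for 6 lists of other Wnt pathway genes, each point 1 gene; red points were called higher, blue points lower and grey points were not called, and black bars are list medians. The list medians lie between -0.72 and -0.093 log2.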

How the data were processed

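Total RNA of MEF, 2 iPS lines and 1 ES line was measured with 1 array each. The authors deposited 1 table of log-scale values, read here as log2, for 28853 probe sets, made with GCRMA per the submitters' processing notes (version not given in the sources used here). GCRMA corrects background and normalizes between arrays. The log base and the centring step are not stated; the row median was 0 within 1e-06 for all 28853 probe sets.

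The platform annotation gave 21789 probe sets 1 symbol, 1621 several and 5443 none. Averaging probe sets with the same symbol left 19938 genes. All 41 gene identifiers matched GRCm38.p6 with the symbol unchanged. No filter on low values was applied, so every member was tested. The planned one needs levels and was not run.

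Differences were tested with limma 3.58.1 under R 4.3.3 (lmFit and eBayes, Benjamini-Hochberg over all genes). The main fit was also run on simulated data in which all 4 arrays varied like the 3 lines. That run could not test whether the lone MEF array varies like them. The main fit set 3 lines against MEF, with 2 residual degrees of freedom; a fit with 3 groups had 1. Alternatives changed the scaling, probe set rule, variance trend and fold minimum, or left out a line. The number of arrays limits the precision. No scan date or slide is given.

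The members and lists were chosen with earlier results of these data known. Every member is named, with values on each array for those called or at least 1 log2 from MEF. Of each pathway list up to 4 called genes of largest difference are named, plus Axin2, Lef1, Tcf7l1, Tcf7l2, Ctnnb1, Lrp5, Lrp6, Lgr4 and Lgr5; any others were chosen after their values were seen.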

Additional observations from a re-analysis of the deposited data

Results flagged for a closer look

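In 5 of 41 genes (12.2%) both iPS lines lay on one side of MEF and the ES line on the other, near the 11.7% of all genes with such a split. Limma's test of iPS against ES called none of the 5. In iPS minus ES, Wnt5b stood at -0.39 log2 (adjusted p = 0.395), Dkk4 at -0.33 log2 (0.385), Dkk1 at 0.26 log2 (0.445), Sfrp5 at -0.22 log2 (0.5) and Wnt8b at -0.060 log2 (0.863). Their means over the 3 lines lay between -0.23 and 0.15 log2 of MEF, and limma called none of them against MEF.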

How the results depend on the processing

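No paired analysis was possible, because each culture was measured on 1 array and the labels name no pairs. The 12 falls in the 3 lines against MEF numbered 13 with reference gene centring, 11 with a variance trend, and 12 with equal array medians, with the probe set of largest range, with genes of 1 probe set only, and with a fold minimum of 0.5 log2 or none (the last added after seeing the data). Leaving out a line gave 7 to 15. With a minimum of 2 log2 the counts of falls were 6 for the lines, 9 for iPS and 6 for ES against MEF, and 0 genes were higher in ES. The other counts of the 3-group fit stayed within 1.5 times; leaving out an iPS line there leaves no residual degrees of freedom and was not run. With the spread of the iPS lines alone, chosen after seeing the data, Dkk2, Sfrp4 and Wnt5a were also called. Genes near 0 changed sign. With reference gene centring these were Dkk1 (-0.0505 log2), Dkk4 (-0.1768), Rspo1 (-0.0431), Rspo4 (-0.1987) and Wnt3 (-0.0485). With equal array medians they were Sfrp5 (0.0215), Wnt4 (0.0117), Wnt7a (0.0028) and Wnt8b (0.0142). Leaving out a line in turn gave a range of -0.0844 to 0.1021 for Dkk4, -0.0413 to 0.0273 for Rspo4, -0.1016 to 0.0110 for Sfrp5, -0.1051 to 0.0344 for Wnt4, -0.1354 to 0.0164 for Wnt7a and -0.3604 to 0.0885 for Tcf7l1. The probe set of largest range put Wnt4 at 0.2858 log2. The cause of these changes was not tested beyond the construction of each setting.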
